A study of Mus musculus with 8 samples.

Results

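The AP-1 and Egr immediate early factors are 10 genes, chosen by symbol among the 23337 gene symbols of the deposited values, namely the FOS family (Fos, Fosb, Fosl1, Fosl2), the JUN family (Jun, Junb, Jund) and the EGR family (Egr1, Egr2, Egr3). Their mRNAs were measured by RNA sequencing in the MOE cell line, which derives from oviductal epithelium of FVB mice, a model of the fallopian tube epithelium. Cells collected with trypsin at confluence were plated on 3D collagen (4 libraries) or on 2D collagen (4 libraries) for 6 h. Both groups were kept in medium that lacked EGF, a growth factor that can itself induce these genes, so no library shows the genes under it. All libraries come from 1 cell line, the labels name no genotype or agent beyond the substrate, and no earlier time than 6 h was analysed here. Whether replicates were separate cultures is not labelled, so the p-values reflect library-to-library spread that may be technical.

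AP-1 is a dimer of proteins that zip together through a leucine zipper. JUN proteins can pair with each other or with FOS proteins, while FOS proteins need a JUN partner, and the dimer binds the site TGACTCA. EGR proteins are zinc finger factors that bind GC-rich sites such as GCGGGGGCG. Fos, Fosb, Jun, Junb and Egr1 to Egr3 are classic immediate early genes, switched on within minutes of growth factors, wounding or attachment without new protein synthesis, and their mRNAs decay fast. Fosl1 and Fosl2 usually follow later, and Jund is made steadily in most cells. The cell line expressed the oviductal epithelial genes Pax8 and Krt7 at 441 to 555 and 3375 to 4408 CPM (counts scaled by library total) in 3D libraries. In 2D libraries they stood at 467 to 566 and 4047 to 5210 CPM. Krt8 and Krt18 were at 1006 to 1223 and 2401 to 2924 CPM in 3D libraries. Every 2D library was higher for both, at 1427 to 1884 and 3098 to 3438 CPM. Krt19 overlapped, at 728 to 1782 CPM in 3D and 684 to 1391 CPM in 2D libraries. The adhesion markers Epcam and Cdh1 were near absent, at no more than 1.26 and 5.23 CPM in any library, as was the secretory marker Ovgp1 at no more than 1.37 CPM.

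The stretches upstream of the members' start sites were searched for the letters of known motifs. RefSeq windows (build GRCm38.p6, the mm10 assembly, of strain C57BL/6J rather than FVB) were searched for 7 of the 10 members. Windows of the other members were not searched, which does not mean that RefSeq holds none. Of those searched, 4 are printed. That of Fos is shown for its spread between libraries, and that of Jun as the main partner of the FOS proteins. Those of Fosb and Junb are shown because 3 of 4 3D libraries lay outside the 2D range. Each line gives the 250 bases before the start site, 5′ to 3′, in lower case, with capitals on matches to the motifs searched.
Fos (chr12:85473640-85473889, plus strand): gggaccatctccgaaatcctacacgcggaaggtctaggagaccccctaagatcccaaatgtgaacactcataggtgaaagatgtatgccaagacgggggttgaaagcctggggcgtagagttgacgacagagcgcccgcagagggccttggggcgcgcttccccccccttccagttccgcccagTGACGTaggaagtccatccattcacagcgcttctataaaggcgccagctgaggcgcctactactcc
Fosb (chr7:19310046-19310295, minus strand): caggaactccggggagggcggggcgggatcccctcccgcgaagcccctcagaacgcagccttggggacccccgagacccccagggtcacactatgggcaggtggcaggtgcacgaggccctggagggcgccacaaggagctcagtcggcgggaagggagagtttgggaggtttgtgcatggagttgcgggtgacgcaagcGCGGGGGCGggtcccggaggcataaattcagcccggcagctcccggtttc
Jun (chr4:95052223-95052472, minus strand): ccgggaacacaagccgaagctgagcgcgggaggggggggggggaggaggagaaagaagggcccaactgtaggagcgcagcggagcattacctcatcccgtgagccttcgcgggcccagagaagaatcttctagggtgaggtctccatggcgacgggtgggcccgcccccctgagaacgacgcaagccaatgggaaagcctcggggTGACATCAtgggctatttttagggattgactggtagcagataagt
Junb (chr8:84978749-84978998, minus strand): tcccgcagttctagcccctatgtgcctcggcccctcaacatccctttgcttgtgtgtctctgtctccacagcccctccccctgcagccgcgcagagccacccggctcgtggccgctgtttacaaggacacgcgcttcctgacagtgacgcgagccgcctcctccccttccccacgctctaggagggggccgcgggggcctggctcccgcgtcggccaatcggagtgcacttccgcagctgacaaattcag

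The motifs searched on both strands were the AP-1 site TGACTCA, the Jun-type AP-1 site TGACATCA, the cAMP response element core TGACGT (which also lies within the full element TGACGTCA, searched too), the EGR sites GCGGGGGCG and GCGTGGGCG, and the CArG box of SRF. The capitals in Fos mark TGACGT, 61 to 66 bases before the start site, a core held by 6.47% of all 32851 windows of this length. Those in Jun mark TGACATCA, 38 to 45 bases before the start site (2.93% of windows). Those in Fosb mark GCGGGGGCG, 42 to 50 bases before it (2.57% of windows). Fosl2 holds the same EGR letters, 71 to 79 bases before a start site that lies 671 bases from the one in the gene annotation. The Junb and Jund windows held none of these letters, and the start site used for Jund lies 1210 bases from the annotated one. Of the 5 windows of Egr2, 4 held a CArG box (1.47% of all windows), but windows overlap and these are 2 distinct boxes. Of those 4, 3 overlapping windows also held the same single TGACGT on the minus strand. A match is a description of the letters and not a measured site.

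None of the members passed the test between the substrates. Of the 10 genes, 8 had enough reads to be tested, and with limma 0 of 8 were called higher and 0 of 8 lower on 3D collagen (threshold of 0.05 on the adjusted p). Over all 11820 genes tested, 2.33% were called higher and 3.39% lower. At an unadjusted p under 0.05 limma took 1 member, Fosb, against 24.2% of all genes, and edgeR and DESeq2 took 1 member each. On the recovered reads edgeR called 0 of 8 and DESeq2 0 of 8, against 5.73% and 13.4% of all genes. The groups overlapped for all 8 tested members, while they did not overlap for 18.4% of all genes. The log2 fold change was above 0 for 6 members and below 0 for 2, with a median of 0.38 against 0.017 over all genes tested. In bulk RNA, fewer cells with a transcript and less of it per cell cannot be told apart.

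**Figure D1:**
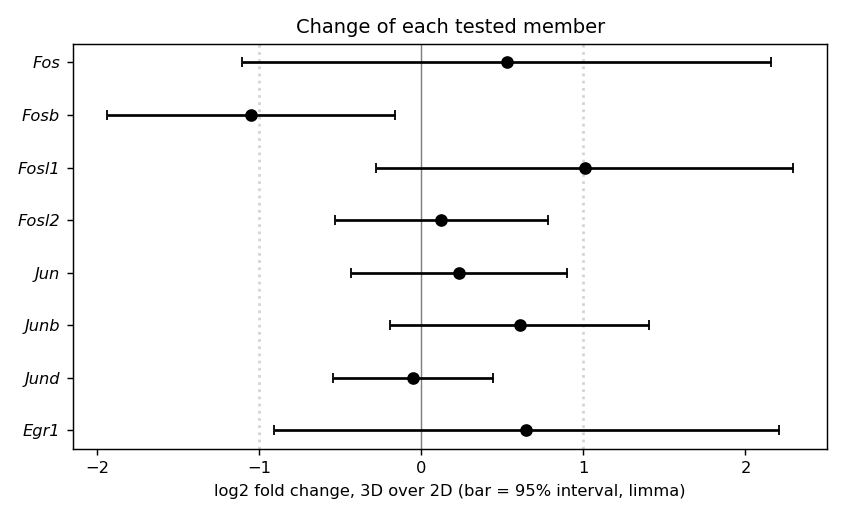
Log2 fold change of each tested member, 3D over 2D collagen (x axis), with the 95% interval of limma (n = 4 libraries per group); dotted lines mark a 2-fold change either way. The interval of Fosb lies below 0 before adjustment, and those of Fosl2, Jun and Jund lie within a 2-fold change either way.

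These limits differ between members. The 95% intervals (limma, unadjusted for the number of genes) of the log2 fold changes of Jund (−0.54 to 0.44), Fosl2 (−0.54 to 0.78) and Jun (−0.43 to 0.90) exclude a 2-fold change in either direction. Those of Fos (−1.11 to 2.16), Egr1 (−0.91 to 2.21) and Fosl1 (−0.28 to 2.29) include a 4-fold increase, so for these 3 genes the spread between libraries leaves room for sizeable changes.

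Fos, the founding member of its family and a strong activator, lies on chromosome 12 (85473890 to 85477273, mm10, plus strand). Its normalized counts (reads divided by 1 size factor per library) were 350, 203, 162 and 49.4 in 3D replicates 1 to 4, against 140, 191, 172 and 28.2 in 2D replicates 1 to 4. Replicate 4 was the lowest library of both substrates, 3D replicates 1 and 2 stood above every 2D library, and 3D replicates 3 and 4 lay among the 2D values. The means were 191 ± 124 and 133 ± 73.0 in 3D and 2D libraries (SD, n = 4 each). The log2 fold change in limma, a difference of mean log2 values, was 0.53 (SE 0.72, adjusted p = 0.703). Without 2D replicate 4 it was −0.10, without 3D replicate 1 it was 0.14 and without 3D replicate 4 it was 1.07.

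Fosb, the other strong activator of the family, has a short splice form known from the brain that these counts per gene do not separate. It lies on chromosome 7 (19302696 to 19310051, minus strand) and had 102, 44.5, 29.9 and 43.0 normalized counts in 3D replicates 1 to 4, against 81.8, 151, 84.6 and 108 in 2D replicates 1 to 4. In 3 of the 4 3D libraries it stood below every 2D library, while 3D replicate 1 stood among them. The means were 54.8 ± 32.1 and 106 ± 31.8 (SD, n = 4 each). The log2 fold change was −1.05 with an SE of 0.40 and a 95% interval of −1.94 to −0.16, at an unadjusted p of 0.0253 in limma. Its adjusted p of 0.147 missed the threshold, and the alternatives gave 0.0762 to 0.349. The counts rest on 32 to 90 reads in the 3D libraries and 84 to 126 in the 2D libraries.

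Fosl1 encodes Fra-1, which lacks the strong activation region of Fos and is known from migrating and invasive epithelial cells. The gene lies on chromosome 19 (5447547 to 5455946, plus strand). It had 562, 650, 271 and 717 normalized counts in 3D replicates 1 to 4, against 172, 308, 106 and 765 in 2D replicates 1 to 4. The highest library of all 8 was 2D replicate 4, and the 3 other 2D libraries were lower than every 3D library but replicate 3. The means were 550 ± 196 and 338 ± 297 (SD, n = 4 each). The log2 fold change in limma, a difference of mean log2 values, was 1.01 (SE 0.57, adjusted p = 0.318). On the recovered reads edgeR gave 0.73 (adjusted p = 0.477) and DESeq2 0.71 (adjusted p = 0.444). In limma it was 1.53 without 2D replicate 4 (adjusted p = 0.0904) and 0.58 without 2D replicate 3 (adjusted p = 0.550). Exons of Ccdc85b on the other strand overlap 57.2% of the exonic bases of Fosl1 in the annotation. Since the strand setting of the counting is not given, reads of the overlapping stretch cannot be told apart. Ccdc85b had 547 ± 96.2 and 656 ± 106 normalized counts (SD, n = 4 each; log2 fold change −0.26, limma adjusted p = 0.427).

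Fosl2 encodes the related Fra-2. It lies on chromosome 5 (32135801 to 32157842, plus strand) and had 6694, 4885, 4638 and 2792 normalized counts in 3D replicates 1 to 4, against 3734, 4712, 5839 and 2930 in 2D replicates 1 to 4. Each substrate again had its lowest value in replicate 4. The means were 4752 ± 1596 and 4304 ± 1256 (SD, n = 4 each). The log2 fold change was 0.12 (SE 0.29, adjusted p = 0.837 in limma). It was −0.046 without 2D replicate 4, −0.064 without 3D replicate 1 and 0.36 without 3D replicate 4.

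Jun, the main activating partner of the FOS proteins, lies on chromosome 4 (95049034 to 95052222, minus strand). It had 1523, 1079, 935 and 674 normalized counts in 3D replicates 1 to 4, against 879, 1087, 1065 and 533 in 2D replicates 1 to 4. Only 3D replicate 1 exceeded every 2D library. The means were 1053 ± 356 and 891 ± 256 (SD, n = 4 each; log2 fold change 0.23, SE 0.30, limma adjusted p = 0.675). The log2 fold change was 0.0040 without 2D replicate 4, 0.035 without 3D replicate 1 and 0.43 without 3D replicate 4.

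Junb, which binds the same partners and often restrains Jun, lies on chromosome 8 (84974484 to 84978718, minus strand). It had 4047, 3622, 2649 and 1412 normalized counts in 3D replicates 1 to 4, against 1833, 2481, 2006 and 1114 in 2D replicates 1 to 4. Here 3 of the 4 3D libraries stood above every 2D library, and 3D replicate 4 stood among them. The means were 2933 ± 1171 and 1859 ± 567 (SD, n = 4 each). The log2 fold change was 0.61 (SE 0.35, 95% interval −0.19 to 1.41, adjusted p = 0.331 in limma). It was 0.38 without 2D replicate 4 and 0.92 without 3D replicate 4. Exons of Prdx2 on the other strand overlap 7.52% of the exonic bases of Junb.

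Jund, which is made steadily and restrains growth in fibroblasts, lies on chromosome 8 (70698949 to 70700616, plus strand). It had 16207, 11374, 12272 and 10940 normalized counts in 3D replicates 1 to 4, against 11432, 19224, 12000 and 10798 in 2D replicates 1 to 4. The groups overlapped, and 2D replicate 2 stood apart from the other 2D libraries and above every 3D library. The means were 12698 ± 2404 and 13363 ± 3938 (SD, n = 4 each; log2 fold change −0.051, SE 0.22, limma adjusted p = 0.912), and the log2 fold change was 0.14 without 2D replicate 2. Gm11175, annotated on the other strand, shares 52.6% of the exonic bases of Jund, and Junos likewise shares 7.28% of those of Jun. Neither symbol is among those of the deposited values, while Ccdc85b and Prdx2 are. The annotation used for the counting is not given.

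Egr1, an early activator after serum, strain or injury, lies on chromosome 18 (34859823 to 34864984, plus strand). It had 539, 316, 205 and 45.7 normalized counts in 3D replicates 1 to 4, against 126, 197, 161 and 66.2 in 2D replicates 1 to 4. The values of 3 3D libraries exceeded every 2D library, and that of 3D replicate 4 was the lowest of all 8. The means were 277 ± 207 and 138 ± 55.8 (SD, n = 4 each). The log2 fold change in limma, a difference of mean log2 values, was 0.65 (SE 0.69, adjusted p = 0.611). On the recovered reads edgeR gave 1.05 (adjusted p = 0.334) and DESeq2 1.01 (adjusted p = 0.279). In limma it was 1.35 without 3D replicate 4 (adjusted p = 0.126), 0.17 without 3D replicate 1 and 0.34 without 2D replicate 4.

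Egr2 and Egr3, relatives of Egr1 known from nerve and lymphocyte development, were close to the limit of detection and were not tested. Egr2 (chromosome 10, 67535475 to 67542188) had 5, 4, 1 and 0 reads in 3D replicates 1 to 4, against 1, 1, 1 and 2 reads in 2D replicates 1 to 4. Egr3 (chromosome 14, 70077203 to 70082614) had 0, 1, 0 and 0 reads in 3D replicates 1 to 4, against 1, 0, 1 and 1 in 2D replicates 1 to 4. Depths of 15692699 to 25862036 reads per library do not resolve a difference at such counts.

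**Figure D2:**
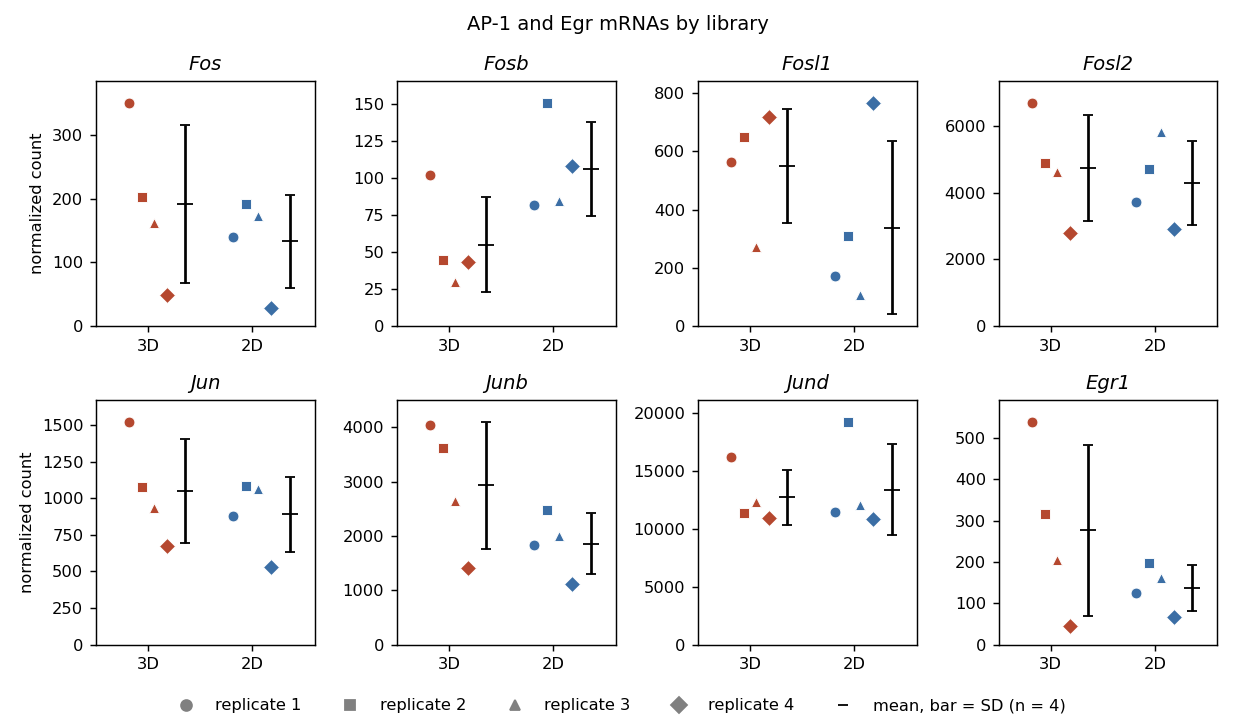
Normalized counts (y axis, from 0) of the 8 tested members in each library on 3D and 2D collagen; symbols mark the replicate number, and the black dash and bar give the mean and SD (n = 4). The groups overlap in every panel, and the diamonds of replicate 4 lie lowest in both groups for Fos, Fosl2, Jun, Junb, Jund and Egr1.

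Levels between genes were compared as normalized counts per kb of exon. Jund led with 7613 ± 1441 in 3D and 8012 ± 2361 in 2D libraries (SD, n = 4 each). Junb followed with 1275 ± 509 and 808 ± 246, Fosl2 with 491 ± 165 and 445 ± 130, and Jun with 330 ± 112 and 279 ± 80.4 in 3D and 2D libraries. The order went on with Fosl1, Fos, Egr1, Fosb, Egr2 and Egr3, and it was the same on both substrates. The ranges of neighbours overlapped except between Jund and Junb and between Fosb and Egr2, and Junb exceeded Fosl2 within each of the 8 libraries. Fosl1 and Jun changed places in 1 library of each substrate, and Fosl1 and Fos, Fos and Egr1, and Egr1 and Fosb each changed places in 1 2D library.

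**Figure D3:**
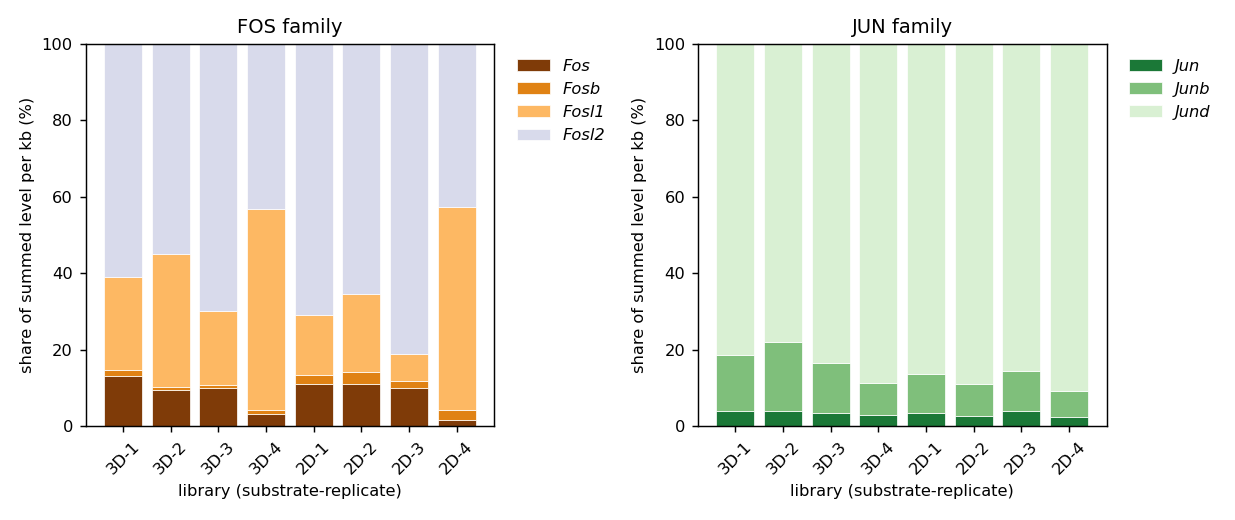
Share of each member (percent, y axis) in the summed normalized counts per kb of exon of the FOS family (left) and the JUN family (right), in each of the 8 libraries. Fosl1 takes 52.7% in 3D replicate 4 and 53.1% in 2D replicate 4, and Jund takes at least 78.1% of the JUN family in every library. The overlap of Fosl1 with Ccdc85b is not corrected for.

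Within the FOS family, Fosl2 made up 57.2% ± 11.2 of the summed level per kb in 3D libraries and 65.1% ± 16.3 in 2D libraries (SD, n = 4 each). Fosl1 made up 32.8% ± 14.7 in 3D libraries and 24.0% ± 20.2 in 2D libraries, and its share was the largest of the family in replicate 4 of both substrates. Exons of Ccdc85b overlap 57.2% of the exonic bases of Fosl1. What this does to the level per kb and rank of Fosl1, and to the shares of the FOS family, was not tested. Fosb was a minor part, between 0.697% and 1.44% in the 3D libraries and between 1.83% and 3.24% in the 2D libraries. These ranges of Fosb did not overlap, which describes a share and was not tested. Within the JUN family Jund made up most of the level, at 82.9% ± 4.52 in 3D and 88.0% ± 2.39 in 2D libraries, and Junb made up 13.5% ± 4.05 and 8.89% ± 1.66. With the longest transcript as the length, the mean share of Fosl2 was 63.9% in 3D and 70.3% in 2D libraries.

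**Figure D4:**
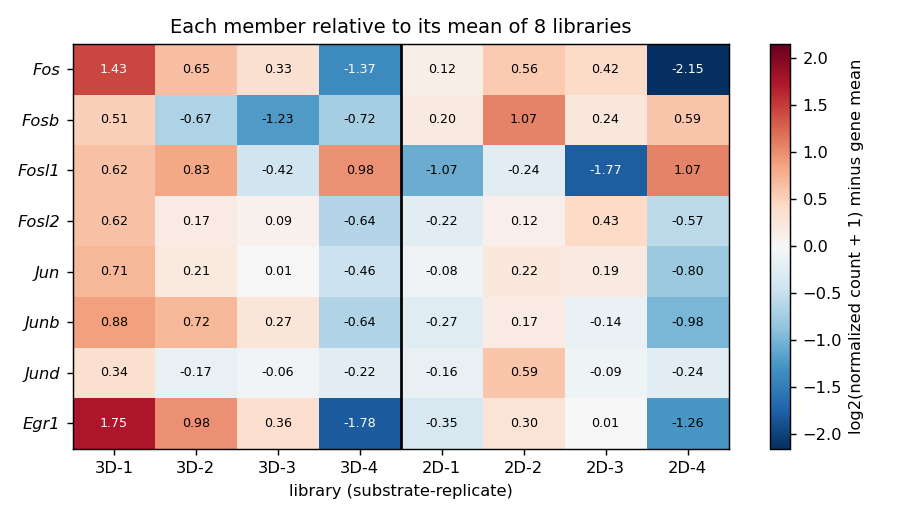
Log2(normalized count + 1) of each tested member minus its mean over the 8 libraries (colour and printed value), with 3D libraries left of the line and 2D libraries right of it. Replicate 4 is low on both substrates for Fos (−1.37 and −2.15) and Egr1 (−1.78 and −1.26) and high for Fosl1 (0.98 and 1.07).

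The members varied more between libraries of 1 substrate than most genes. The SD within groups on the log2 scale was 1.23 for Fos, 1.17 for Egr1 and 0.97 for Fosl1, at the percentiles 96.0, 95.4 and 91.8 of all genes tested, and 7 of the 8 members exceeded the median of all genes, 0.35. Of the 8 tested members 6 had their lowest 3D value in replicate 4, and the same 6 (Fos, Fosl2, Jun, Junb, Jund, Egr1) had their lowest 2D value in replicate 4. Over all genes tested, those libraries were lowest in 37.0% and 30.6% of cases. The highest values lay in 3D replicate 1 for 7 of the 8 and in 2D replicate 2 for 6 of the 8, against 28.6% and 33.2% of all genes. The members are not independent of each other, and these shares describe the libraries. The same 2 libraries had the highest sums over 8 liver transcripts, at 25.3 CPM in 3D replicate 1 and 21.6 CPM in 2D replicate 2, against 0.434 to 6.22 CPM in the other 3D libraries and 2.02 to 7.23 CPM in the other 2D libraries. The sums over 7 intestine transcripts were 8.08 and 14.6 CPM in these libraries and 1.21 to 7.16 CPM in the rest. The part of this RNA in the members' values was not tested.

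Ratios between members were taken with 1 added to each normalized count, and depend on how libraries are scaled only through that 1. Of the 28 pairs of tested members, the groups did not overlap for 3, against 17.4% of all pairs of genes, and Fosb was 1 partner in each. With 1 added to both, the count of Fosb as a percentage of that of Junb was 2.54, 1.26, 1.16 and 3.11 in 3D replicates 1 to 4. In 2D replicates 1 to 4 it was 4.51, 6.10, 4.27 and 9.76. The log2 ratio of Fosb over Junb averaged −5.76 ± 0.71 in 3D and −4.10 ± 0.55 in 2D libraries (SD, n = 4 each, difference −1.66, two-sided exact permutation p = 0.0286, adjusted p over the 28 pairs = 0.267). For Fosb over Jun the difference was −1.28, with the same 2 p-values. As a percentage of Jund, Fosb was at 0.251 to 0.635 in 3D libraries and 0.714 to 1.01 in 2D libraries, again with the same p-values. With 4 libraries a group, 0.0286 is the smallest p that this test can give, and 0 pairs passed after adjustment. These 3 pairs were picked because their groups did not overlap, and any such pair gets this p. The equal p-values therefore repeat that choice and add no support to it.

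The most similar profiles over the 8 libraries were sought for the most abundant tested member per kb of each family, among 9490 other tested genes with a mean normalized count of at least 100. The measure was the root mean square difference of log2 values after each gene's mean was subtracted. For Fosl2 the nearest were Pccb (0.11), Zdhhc24 (0.12), Cmtm6 (0.12) and Glb1 (0.13), while the median gene stood at 0.53 and Jun, at 0.15, was the 12th nearest. For Jund they were Sharpin (0.061), Rtkn (0.077), Ubtd1 (0.087) and Grhpr (0.090), with a median gene at 0.43. For Egr1 they were Arg2 (0.19), Ndrg1 (0.24), Arid5a (0.26) and 2810459M11Rik (0.34), with a median gene at 1.12, and Fos, at 0.45, was the 16th nearest.

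Among the other partners of AP-1, Jdp2, a repressor that pairs with JUN proteins, fell on 3D collagen. It had 263, 315, 323 and 297 normalized counts in 3D replicates 1 to 4, against 779, 809, 737 and 499 in 2D replicates 1 to 4, so every 3D library lay below every 2D library. Its log2 fold change was −1.21, with an SE of 0.19 and an adjusted p of 0.0112 in limma. Of 7 tested partners (Jdp2, 3 ATF genes and 3 small MAF genes) it was the 1 that fell, and 0 rose, against 3.39% and 2.33% of all genes. DESeq2, which called 13.4% of all genes in either direction, called 1 of these partners higher. The median log2 fold change of these partners was −0.022. Neither EGR corepressor passed, Nab1 at a log2 fold change of 0.71 (adjusted p = 0.287 in limma) and Nab2 at −0.23 (adjusted p = 0.468).

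Other immediate early genes changed in both directions. Of 39 tested genes of that list, 5 rose and 5 fell, 12.8% each against 2.33% and 3.39% of all genes, with a median log2 fold change of −0.024. DESeq2 called 10 higher and 8 lower, where it called 708 and 871 of all 11820 genes. Library size scaling gave 9 higher, where it gave 498 over all genes. The genes that fell were Cyr61 and Ctgf, which encode matricellular proteins, the transcription factors Srf and Myc, and Tnfaip3, an inhibitor of NF-kappaB. Cyr61 had 989, 1958, 1560 and 727 normalized counts in 3D replicates 1 to 4, against 19779, 34471, 16539 and 12874 in 2D replicates 1 to 4 (95% interval of the log2 fold change −4.84 to −3.16, limma adjusted p = 0.00144). Srf, the factor that binds CArG boxes, had 1026 ± 163 and 3792 ± 1135 normalized counts in 3D and 2D libraries (SD, n = 4 each), while 0 of its 5 tested cofactors and ternary complex factors passed. On the strand opposite Ctgf, Gm15270 shares 23.2% of its exonic bases.

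The genes that rose were Zfp36l1, which binds and destabilises mRNAs, the MAP kinase phosphatase Dusp4, and the transcription regulators Cebpb, Btg1 and Klf4. Zfp36l1 had 3653, 2873, 2425 and 1566 normalized counts in 3D replicates 1 to 4, against 693, 409, 1091 and 466 in 2D replicates 1 to 4 (log2 fold change 2.03, SE 0.35, limma adjusted p = 0.0156). Gm26669 on the other strand shares 55.9% of its exonic bases, and Tmem189 shares 20.7% of those of Cebpb. The log2 fold changes of Dusp4, Cebpb, Btg1 and Klf4 (named after their values were seen) were 1.69, 1.35, 0.92 and 0.94. The count of higher genes depended on single libraries, at 0 with 3D replicate 1, 2 or 3 left out, 1 with 2D replicate 1 or 4 left out, and 3 with 2D replicate 3 left out. The count of lower genes was 3 without 3D replicate 1 or 3, where Myc (limma adjusted p = 0.0622 and 0.0768) and Tnfaip3 (0.0585 and 0.0845) were lost, also without both libraries numbered 4 (0.0624 and 0.0590). Zfp36l1 was lost when 3D replicate 1, 2 or 3 was left out (adjusted p = 0.0508, 0.0585 and 0.0557).

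**Figure D5:**
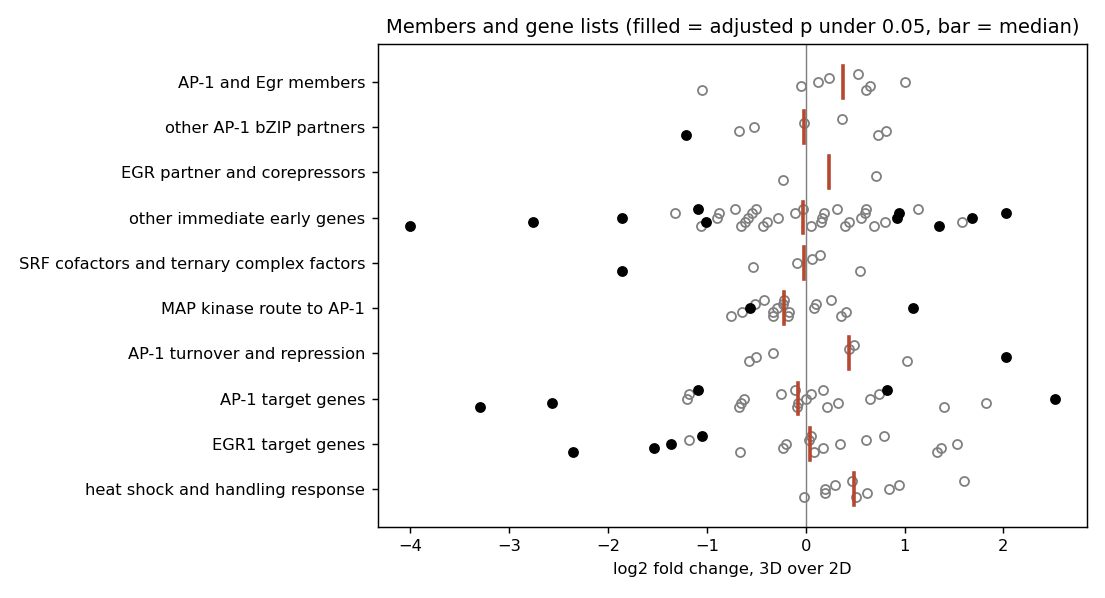
Log2 fold change, 3D over 2D collagen (x axis), of the 8 tested members and of the genes of each list, 1 point per gene; filled points have a limma adjusted p under 0.05 and the bar is the median. No member is filled, while 10 of the 39 other immediate early genes are.

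Known targets of AP-1 did not move one way. Of 23 tested targets 2 rose and 3 fell, 8.70% and 13.0% against 2.33% and 3.39% of all genes, with a median log2 fold change of −0.083. Hbegf, a ligand of the EGF receptor, fell to 76.6 ± 19.1 in 3D libraries, against 451 ± 53.6 in 2D libraries (SD, n = 4 each; limma adjusted p = 0.00144), and the activin inhibitor Fst had a log2 fold change of −1.09. Involucrin (Ivl), of stratified epithelia, rose to 851 ± 311 in 3D libraries, against 142 ± 22.7 in 2D libraries (SD, n = 4 each; limma adjusted p = 0.00228). The hyaluronan receptor Cd44 rose by 0.82 on the log2 scale (adjusted p = 0.0380 in limma). Its call was lost with the GC correction (adjusted p = 0.162) and when 2D replicate 2, 3 or 4 or 3D replicate 1, 2 or 3 was left out (0.0623 to 0.117). That of Fst was lost when 3D replicate 1 or 3 was left out (0.0514 and 0.0606).

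Of 18 tested targets of EGR1, 4 fell, 22.2% against 3.39% of all genes, and 0 rose, against 2.33%, with a median log2 fold change of 0.044. Without both libraries numbered 4, 1 was called higher, where 171 of all genes were. The growth factor Pdgfb had 1401, 1621, 1360 and 842 normalized counts in 3D replicates 1 to 4, against 3269, 5560, 3324 and 3073 in 2D replicates 1 to 4 (log2 fold change −1.54, SE 0.25, limma adjusted p = 0.0126). The matrix proteins Thbs1 and Fn1 and the coagulation receptor F3 had log2 fold changes of −2.35, −1.05 and −1.36. Without 3D replicate 3 the count was 1, and without 2D replicate 3 or 3D replicate 2 it was 2. The calls of Thbs1 (limma adjusted p = 0.0543), Fn1 (0.0844) and F3 (0.0661) were all lost without 3D replicate 3. That of Fn1 was also lost without 2D replicate 3 (0.0525) or 3D replicate 2 (0.0607), and that of F3 without 2D replicate 3 or any 3D replicate (0.0507 to 0.0787).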

How the data were processed

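Each library has a table deposited by the authors, which holds a normalized signal for each gene. HTSeq 0.6.1p1, mm10 and DESeq2 are named in the submitters' processing notes. Aligner, annotation, strand setting and filters: not given in the sources used here. In every library 100% of the values were whole multiples of the worth of 1 read (tolerance 0.001 reads), and the divisors matched recomputed median-of-ratios size factors within 3.4e-09, so the reads were recovered (15692699 to 25862036 per library). The number of libraries and these depths limit the precision of genes with few reads.

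Groups were compared with limma 3.58.1 in R 4.3.3 with a trended, robust prior variance on log2(normalized count + 1), over genes with at least 10 in at least 4 libraries, adjusted by the Benjamini-Hochberg method (threshold 0.05). Fold changes on this scale understate those of low genes. edgeR (4.0.16, 308 genes higher and 369 lower) and DESeq2 (1.42.0) took the recovered reads as alternatives. The test was tried on simulated data. Positions, lengths and GC content are from GENCODE M21 (GRCm38), which matched 22871 symbols. The members and lists were chosen with earlier results of these data known. Named genes are all members, up to 6 passing genes per list with the smallest adjusted p, and the 4 most similar profiles per family. The ratios between members were added after the data were seen. Some genes that this rule takes are not reported here.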

Additional observations from a re-analysis of the deposited data

Results flagged for a closer look

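In groups of 4 libraries, a library was marked where its gap to the nearest of the others took up more than 82.9% of the group's range; among 56 groups checked 8 were marked, and chance marks about 1 in 20. Among the members, Jund stood apart in 2D replicate 2 at 19224 normalized counts, where the other 2D libraries had 10798 to 12000. Egr3 stood apart in 3D replicate 2 at 0.873 normalized counts, which is 1 read where the other 3D libraries had 0. Of the other named genes, 2D replicate 2 stood apart for Srf (5494, others 3166 to 3292) and Pdgfb (5560, others 3073 to 3324). Ctgf was low in 3D replicate 4 (1884, others 5408 to 5884), Map2k6 low in 3D replicate 1 (166, others 211 to 212) and Fst low in 2D replicate 3 (732, others 1063 to 1123). Myc was high in 3D replicate 2 (448, others 340 to 352).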

How the results depend on the processing

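Of 184 values of the members under 23 alternatives, 173 kept their direction and their side of the threshold. No member passed under another scaling, filter, pseudocount or count model, with the GC trends removed, or without any 1 library or both libraries numbered 4. The replicate block, which rests on the numbers only, called 0 members by limma, 1 by edgeR (added after the data were seen; Junb, 0.65, adjusted p = 0.0499) and 2 with the GC correction (Fosl1, 1.22, adjusted p = 0.0261; Junb, 0.77, adjusted p = 0.0177). Under the block, limma called 10 other immediate early genes lower and 2 EGR1 targets higher. With the GC correction too, 11 of the first were lower and 3 of the second higher. Of the 7 other AP-1 partners, the block called 1 higher and 2 lower by limma, both with and without the GC correction. The block alone called 5.61% of all genes higher and 6.28% lower by limma. Deviations from the group means correlated between same-numbered libraries at −0.17, 0.37, 0.25 and 0.81 for numbers 1 to 4, and 3D replicate 1 correlated best with 2D replicate 2, at 0.45. Direction turned for Jund with library size scaling (0.12; median of all genes then 0.19), with the GC correction and with the block plus GC correction (both 0.00373). Over the fits without 1 library the log2 fold change ranged from −0.17 to 0.14 for Jund, −0.10 to 1.07 for Fos, −0.064 to 0.36 for Fosl2, 0.0040 to 0.43 for Jun, 0.38 to 0.92 for Junb, 0.58 to 1.53 for Fosl1, 0.17 to 1.35 for Egr1 and −1.40 to −0.82 for Fosb. Counts of genes higher and lower were 498 and 318 with library size, 708 and 871 by DESeq2, 453 and 628 with the GC correction, 663 and 742 with the block, 889 and 1116 (7.59% and 9.53% of genes) with both, 718 and 643 by edgeR with the block, 171 and 276 without both libraries numbered 4, and 77 and 138 with the block too. Without 1 library they ranged from 44 to 267 and from 104 to 370, where fewer libraries were tested. The cause of the other moves was not tested. For 18 other named genes 367 of 414 values were unchanged in direction and call, 47 were no longer called and 0 turned. Genes such as Egr2 and Egr3 cannot be compared at this depth.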

Other observations

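Of 18 tested kinases between growth factor receptors and AP-1, 1 rose and 1 fell, 5.56% each against 2.33% and 3.39% of all genes. Their median log2 fold change was −0.22, against 0.017 over all genes tested. Map2k6, which activates p38, rose by 1.08 on the log2 scale (adjusted p = 0.0238 in limma). Its call was lost when any 1 of the 3D replicates was left out (adjusted p from 0.0557 to 0.0995) and without both libraries numbered 4 (0.0693). The count of lower kinases was 0 in those same fits, without 2D replicate 3 or 4, and with library size scaling. It was 2 by DESeq2 and with the GC correction, where 871 and 628 of all genes were lower.

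Heat shock genes, which respond to handling, had 0 of 10 tested members past the threshold by limma, against 2.33% of all genes higher and 3.39% lower. At an unadjusted p under 0.05 limma took 4 of the 10, against 24.2% of all genes. Their median log2 fold change was 0.48, against 0.017 over all genes tested. Of 7 tested genes for the turnover and repression of AP-1 only Zfp36l1 passed, already counted among the other immediate early genes. That is 14.3% higher, against 2.33% of all genes. The median log2 fold change of these genes was 0.44, against 0.017 over all genes tested. Smooth muscle markers summed to 308 to 1100 CPM in 3D libraries and 548 to 2736 CPM in 2D libraries, mostly Acta2 and Tagln. Fibroblast markers summed to at most 19.4 CPM, immune markers to at most 39.8 CPM and endothelial markers to at most 38.9 CPM in any library. The lists were uneven. Dcn reached 15.5 CPM, Cd68 30.2 CPM, Csf1r 21.2 CPM and Kdr 37.9 CPM, while Lum, Cd3e and Emcn had a median of 0. Ciliated cell markers, mostly the tubulin Tubb4b, summed to 243 to 413 CPM in 3D libraries and 356 to 706 CPM in 2D libraries. Among them, Foxj1 was at 8.08 to 61.0 CPM in 3D and 52.4 to 77.9 CPM in 2D libraries. Rsph1 was at 8.31 to 14.0 and 5.54 to 8.58 CPM, and Ccdc39 at no more than 0.253 CPM in any library.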
